A study of Mus musculus with 18 samples.

Results

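The 2 CDK8 knockdown lines of the murine triple-negative breast cancer line E0771, shCdk8-1 and shCdk8-2, were compared with each other while both were kept in the CDK8/CDK19 inhibitor Senexin B (SnxB). The comparison took the 3 libraries titled for hairpin CDK8.1830 with Senexin B (shCdk8-2) and the 3 titled for hairpin CDK8.1593 with Senexin B (shCdk8-1), out of 18 libraries in the series, and all of the 12772 genes that passed a filter on low counts out of 50686 listed. E0771 is a mammary carcinoma line of the mouse. All cells carried a retroviral short-hairpin vector with mCherry and a firefly luciferase construct, and cells had been incubated for 48 hours with 1 µM SnxB or with DMSO, its solvent. The third line, cntrl, carried a hairpin against Renilla luciferase in the same vector and was also taken under both agents, so each of the 6 groups held 3 libraries of total RNA. The labels do not say whether the 3 libraries of a group came from separate cultures, so p-values measure the spread between these libraries, which may be technical. Each hairpin was represented by 1 cell line. The hairpin and any other difference between the 2 lines therefore cannot be told apart.

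CDK8 and its paralog CDK19 are the alternative kinases of the Mediator kinase module, in which they are held with cyclin C, MED12 or MED12L, and MED13 or MED13L. The module docks reversibly on Mediator, the complex that relays signals from DNA-bound transcription factors to RNA polymerase II, and it can act through phosphorylation of transcription factors or through its presence on Mediator alone. SnxB is an ATP-competitive inhibitor of both kinases. The comparison asks how 2 lines with different hairpins against the same gene differ from each other when the inhibitor is shared.

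The target sites of the 2 hairpins are shown because they are the designed difference between the lines. They were read from the study's hairpin oligos and matched to GRCm38, and capitals mark the bases paired by positions 2 to 8 of the guide, the seed.
shCdk8-1: cacagattatgttaACAAAATa
shCdk8-2: ttggagttagacttGAAATGAa
The first lies at chr5:146302117-146302138 and the second at chr5:146301880-146301901, both on the plus strand in exon 13 of Cdk8, in the 3′ UTR of transcript ENSMUST00000031640.14. The 2 seeds are different. The numbers in these hairpin names and the starts of the sites are both 237 apart, but in opposite order. Which oligo each library carries could not be settled from the labels, and the lines are named here as the labels name them.

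The targeted gene was higher in shCdk8-2 than in shCdk8-1 under SnxB. Cdk8 was at 24.8, 20.2 and 24.4 CPM (counts scaled to a common library size) in the shCdk8-1 libraries and at 36.6, 41.6 and 40.3 CPM in the shCdk8-2 libraries, with cntrl at 53.6, 54.0 and 57.3 CPM. The 3 groups did not overlap, and shCdk8-2 lay between shCdk8-1 and cntrl. The log2 fold change of shCdk8-2 over shCdk8-1 was 0.77 (SE 0.08, adjusted p = 4.59e-07, edgeR's quasi-likelihood test with Benjamini-Hochberg adjustment over all genes tested, as throughout). Cdk19, the paralog that SnxB also targets, moved the other way, with a log2 fold change of -0.20 (SE 0.04, adjusted p = 0.00173) and levels of 139, 125 and 133 CPM in shCdk8-1 and 120, 114 and 111 CPM in shCdk8-2. Ccnc (cyclin C), Med12, Med13 and Med13l gave log2 fold changes between 0.04 and 0.15, and their libraries overlapped between the lines with adjusted p between 0.391 and 0.601. Med12l, the remaining member of the 7, did not pass the count filter.

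A gene was called when its adjusted p was under 0.05 and its fold change above 2. By this rule 162 genes rose in shCdk8-2 (1.27% of the genes tested) and 106 fell (0.83%), together 268 of 12772 (2.1%). The adjusted p alone was met by 2674 genes (20.9%), of which 1353 were higher (10.6%) and 1321 lower (10.3%), and 2141 of these differed by less than 1.5-fold. The median size of the difference was 1.60 on the log2 scale among called genes and 0.26 among all those past the adjusted p. Of the called genes, 248 were protein coding and 136 averaged 1 CPM or more over the 6 libraries. Among the genes that rose, 39 had at most 3 counts in every shCdk8-1 library. Of those that fell, 4 had at most 3 counts in every shCdk8-2 library. The count filter covered all 18 libraries, so a gene near 0 in a line could pass through the other groups. These counts are therefore not set against each other. In this bulk RNA, fewer cells with a transcript and less transcript per cell cannot be told apart.

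**Figure D1:**
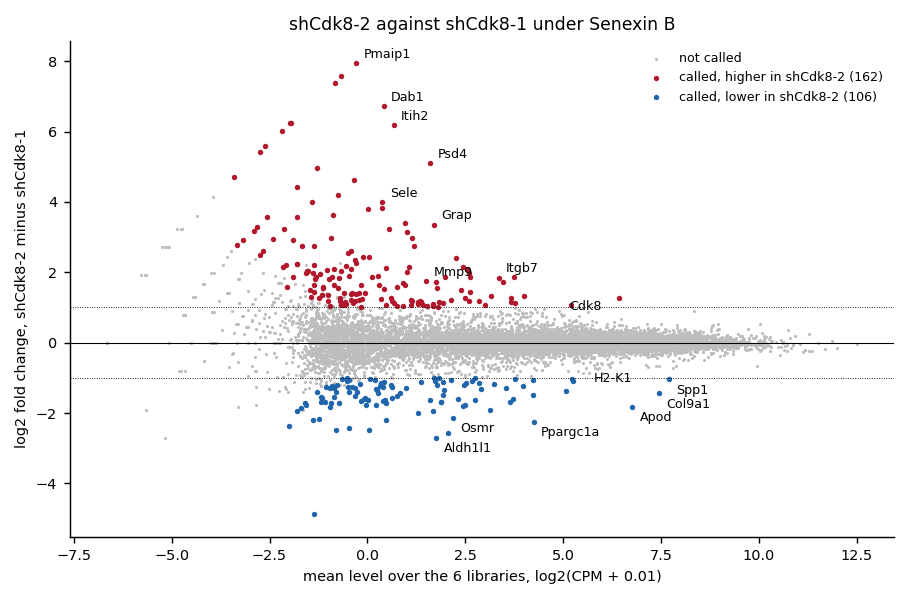
Each point is 1 of the 12772 genes tested, placed by its mean level over the 6 SnxB libraries (x axis, log2 of CPM + 0.01) and its log2 fold change, shCdk8-2 minus shCdk8-1 (y axis), with dotted lines at a fold change of 2. The 162 called genes above the upper line reach higher log2 fold changes than the 106 below the lower line do in the other direction, and Cdk8 and H2-K1 are labelled although neither was called.

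Among called genes averaging at least 1 CPM over the 6 libraries, those with the largest rise in shCdk8-2 were close to silent in shCdk8-1. Most of them were well expressed in cntrl. Psd4, an exchange factor for the small GTPase ARF6, had 3, 2 and 4 counts in the shCdk8-1 libraries (0.161, 0.119 and 0.212 CPM) and stood at 6.55, 5.52 and 5.55 CPM in shCdk8-2 (log2 fold change 5.10, SE 0.24, adjusted p = 1.83e-11). Its cntrl level was 41.9, 38.8 and 41.1 CPM, so the shCdk8-2 libraries recovered a small part of the cntrl level. Grap, an adaptor that links receptors to Ras signaling, followed the same order, with 0.753, 0.476 and 0.476 CPM in shCdk8-1, 5.67, 6.6 and 5.44 CPM in shCdk8-2 and 44.3 to 50.7 CPM in cntrl (log2 fold change 3.36, SE 0.18, adjusted p = 1.36e-10). In neither gene did any pair of the 3 groups overlap. Fam167b, Flrt3, Bin2, Samsn1, Gimap9 and Sele gave log2 fold changes between 2.74 and 3.99 and were all highest in cntrl. Sele encodes E-selectin, a lectin that captures leukocytes on endothelium, and was at 2.46, 2.62 and 2.25 CPM in shCdk8-2 and between 0.05 and 0.24 CPM in shCdk8-1. Samsn1, an adaptor best known from lymphocytes, stood at 3.5, 4.78 and 3.66 CPM in shCdk8-2 against 67.6 to 75.4 CPM in cntrl.

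Other genes rose in shCdk8-2 to a level above that of cntrl as well. Dab1, the adaptor that carries Reelin signals, had 1, 0 and 0 counts in shCdk8-1 and 58, 32 and 54 counts in shCdk8-2. Set against a floor of 3 counts per library, it was at least 15.8-fold higher in shCdk8-2 (adjusted p = 4.89e-07), and the cntrl SnxB libraries held at most 0.0464 CPM. Itih2, a serum protein that binds hyaluronan, had 2, 0 and 0 counts in shCdk8-1 and 63, 51 and 58 in shCdk8-2 and was at least 18.9-fold higher (adjusted p = 9.49e-09), with cntrl again at no more than 0.0513 CPM. Both genes showed the same contrast in the DMSO libraries of the lines, where Dab1 had no count in any shCdk8-1 library and 2.74, 3.06 and 2.19 CPM in shCdk8-2. Tmem176b and Tex19.2 also stood highest in shCdk8-2, at 3.30 to 4.37 CPM and 2.01 to 2.66 CPM, above cntrl libraries at no more than 1.97 and 0.711 CPM. These 4 genes thus separated shCdk8-2 from both of the other lines.

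Pmaip1, which encodes the BH3-only death protein NOXA, was without a count in the 3 shCdk8-1 libraries under SnxB. The shCdk8-2 libraries held 27, 38 and 23 counts (1.33, 2.16 and 1.36 CPM), which made the gene at least 9.74-fold higher against the floor of 3 counts (adjusted p = 2.28e-07). Its cntrl level was 12.9, 14.2 and 13.2 CPM. Fas, the death receptor, rose as well, from 1.72, 1.55 and 2.75 CPM to 3.65, 4.50 and 4.85 CPM (log2 fold change 1.09, SE 0.17, adjusted p = 0.000109). Of 28 CDK inhibitor and p53 target genes tested, 3 were higher and 8 lower at the adjusted p. This stands beside 10.6% of all genes higher and 10.3% lower. In 20 of the 28 the log2 fold change was negative, and the median was -0.09 beside -0.00135 for all genes tested. Cdkn1a, which encodes the CDK inhibitor p21, fell from 64.8, 67.8 and 69.8 CPM to 43.6, 45.1 and 41.1 CPM (log2 fold change -0.64, SE 0.05, adjusted p = 1.53e-08). Btg2, an antiproliferative p53 target, also fell (log2 fold change -0.62, adjusted p = 0.00397). Cell cycle and E2F target genes differed little, with 2 of 48 higher, 6 lower and log2 fold changes from -0.25 to 0.25. Mcm4, a subunit of the replicative helicase, gave 0.25 and E2f8, an atypical repressor of the E2F family, -0.25.

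**Figure D2:**
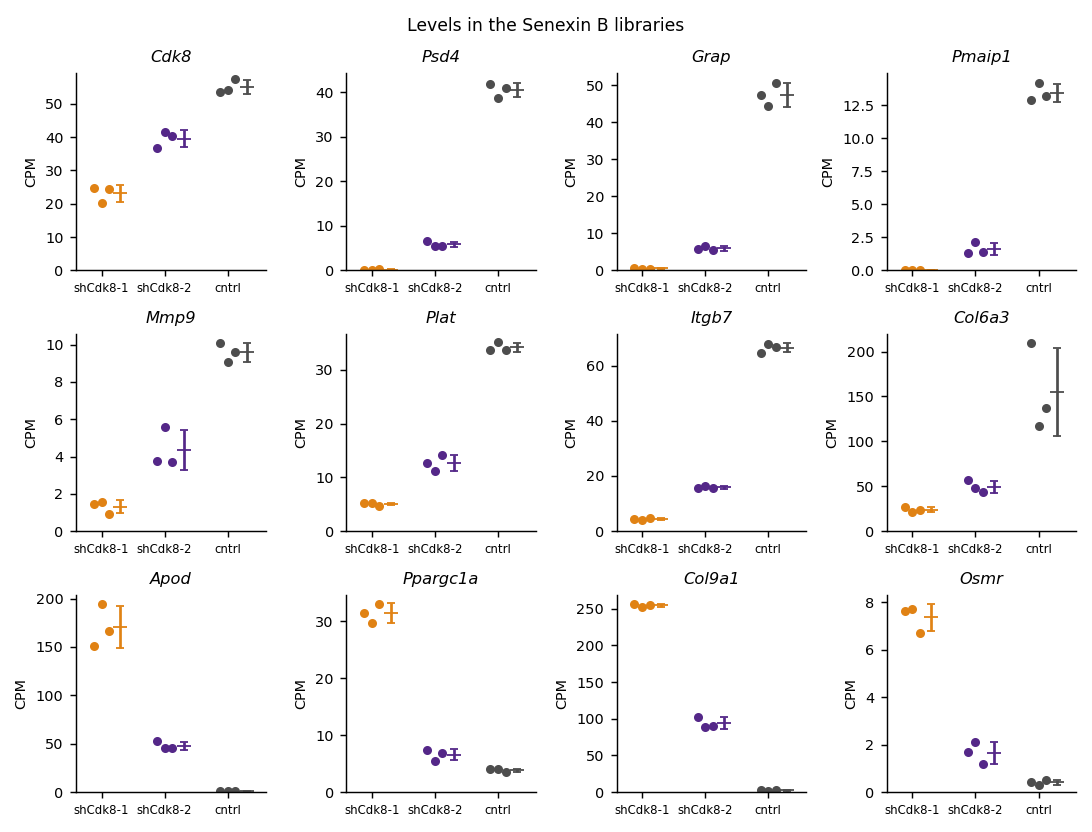
Levels in CPM (y axis, from 0) of 12 genes in the 9 SnxB libraries, grouped by line on the x axis. Points are libraries, and the bar beside each group is its mean ± SD (n = 3). Cdk8 and the other genes of the upper 2 rows rise in the order shCdk8-1, shCdk8-2, cntrl, and the 4 genes of the lowest row (Apod, Ppargc1a, Col9a1 and Osmr) fall in that order.

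Of 28 genes of metalloproteases, plasminogen activators and their inhibitors tested, 12 were higher and 1 lower at the adjusted p and 15 did not pass. This stands beside 10.6% of all genes higher and 10.3% lower, the shares against which each list here is read. Of the 28 tested, 5 were called higher, beside 1.27% of all genes, and the median log2 fold change was 0.17. Mmp9 (gelatinase B), which degrades basement-membrane collagen and was followed in the study, was at 1.45, 1.55 and 0.899 CPM in shCdk8-1, 3.75, 5.58 and 3.72 CPM in shCdk8-2 and 9.09 to 10.1 CPM in cntrl (log2 fold change 1.74, SE 0.22, adjusted p = 7.73e-06). Plat, the tissue plasminogen activator, was at 5.16, 5.23 and 4.76 CPM in shCdk8-1 and 12.7, 11.2 and 14.1 CPM in shCdk8-2 (log2 fold change 1.32, SE 0.09, adjusted p = 3.97e-09). No library of one line reached the range of the other in either gene. Plau, the urokinase, gave 0.54. Reck, a membrane-anchored inhibitor of several metalloproteases, had 2, 1 and 1 counts in shCdk8-1 and 10, 10 and 9 in shCdk8-2. It was at least 3.20-fold higher under SnxB (adjusted p = 0.000155), and in DMSO its log2 fold change was 0.51 (adjusted p = 0.532). The DMSO libraries of the lines did not overlap for Reck, with shCdk8-2 higher there too. Reck did not pass the interaction test, so a difference between agents was not shown. Mmp3 and Mmp13, a stromelysin and a collagenase, were called as well but held at most 27 and 4 counts in any of the 6 libraries. Mmp3 lost its call without replicates 1 or 3 of either line (adjusted p 0.0201 to 0.150 over the 6 omissions), and Mmp13 without replicates 2 or 3 of shCdk8-1 or 1 or 2 of shCdk8-2 (0.0239 to 0.144).

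Genes of the extracellular matrix moved in both directions. Matrix glycoproteins and proteoglycans were higher in 12 and lower in 5 of 24 members tested, while collagens were higher in 4 and lower in 9 of 21. Tnc (tenascin C), a matrix protein of wounds and tumor stroma, rose from 2.58, 2.5 and 3.12 CPM to 7.74, 7.91 and 7.45 CPM (log2 fold change 1.49, SE 0.16, adjusted p = 8.72e-07), and cntrl was higher still at 15.7 to 22.1 CPM. Fmod (fibromodulin) rose with a log2 fold change of 1.87, from a lower level and with cntrl at no more than 0.328 CPM. Thbs1, the anti-angiogenic glycoprotein thrombospondin 1, fell from 7.42, 7.02 and 6.88 CPM to 0.887, 1.08 and 1.65 CPM (log2 fold change -2.57, SE 0.20, adjusted p = 1.28e-08). Spp1 (osteopontin), a secreted ligand of integrins and CD44, fell from 254, 303 and 278 CPM to 139, 126 and 140 CPM (log2 fold change -1.04, SE 0.06, adjusted p = 3.00e-10), and there cntrl, at 242 to 268 CPM, sat with shCdk8-1. Dcn, the small proteoglycan decorin, fell as well (log2 fold change -1.73, adjusted p = 5.45e-05).

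Among the collagens, subunits of different fibrils parted. Col9a1, a chain of the cartilage collagen type IX, was at 256, 253 and 255 CPM in shCdk8-1, 103, 88.6 and 90.4 CPM in shCdk8-2 and 1.76 to 2.95 CPM in cntrl (log2 fold change -1.44, SE 0.06, adjusted p = 3.71e-12). Col9a3, its partner chain, fell from 53.6, 50.7 and 46.5 CPM to 23.1, 26.6 and 23.5 CPM (log2 fold change -1.04, adjusted p = 3.99e-08). Col6a3, a chain of the beaded-filament collagen type VI, rose from 27.1, 21.3 and 23.1 CPM to 57.1, 47.8 and 44.0 CPM (log2 fold change 1.06, SE 0.19, adjusted p = 0.000404). The cntrl libraries held 117 to 210 CPM of Col6a3, so the order of the 3 lines was opposite to that of the type IX chains. The other type VI chains did not follow: Col6a1 gave -0.35 and Col6a2 -0.25. Col3a1 was the most abundant of these by counts, with a mean of 1490 CPM in shCdk8-1 and 1920 CPM in shCdk8-2 and a log2 fold change of 0.37.

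Adhesion genes that passed the test were mostly higher in shCdk8-2. Of 21 integrin and laminin genes tested, 6 were higher and 1 lower (all genes, 10.6% and 10.3%), and 1 was called (all genes, 2.1%). That gene, Itgb7, the beta chain of integrins that guide lymphocytes to the gut, was at 4.41, 4.16 and 4.66 CPM in shCdk8-1, 15.8, 16.5 and 15.5 CPM in shCdk8-2 and 64.7 to 68.0 CPM in cntrl (log2 fold change 1.85, SE 0.08, adjusted p = 7.97e-12). Itgb3, the beta chain of the vitronectin receptor, gave 0.83, and the laminin chain Lamb1 rose from 9.30, 11.4 and 9.79 CPM to 21.2, 18.6 and 17.8 CPM (log2 fold change 0.93, adjusted p = 8.75e-06). Epithelial junction genes were mixed, with 4 higher and 2 lower of 12 tested. The desmosomal Pkp1 fell (log2 fold change -1.66, adjusted p = 0.000865), whereas Krt8, a keratin of simple epithelia, rose from 6.51, 6.90 and 7.83 CPM to 11.3, 11.6 and 11.2 CPM (log2 fold change 0.68, adjusted p = 9.79e-06) over cntrl libraries with at most 0.0513 CPM.

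Among called genes averaging at least 1 CPM, those with the largest fall in shCdk8-2 were also lower in cntrl than in shCdk8-1. Aldh1l1, the folate enzyme formyltetrahydrofolate dehydrogenase, was at 5.92, 5.77 and 5.87 CPM in shCdk8-1, 0.887, 0.911 and 0.886 CPM in shCdk8-2 and at most 0.164 CPM in cntrl (log2 fold change -2.70, SE 0.19, adjusted p = 3.97e-09). Ppargc1a, the coactivator PGC-1α that drives mitochondrial biogenesis, fell from 31.5, 29.7 and 33.1 CPM to 7.39, 5.47 and 6.91 CPM (log2 fold change -2.25, SE 0.09, adjusted p = 3.71e-12) beside 3.49 to 3.99 CPM in cntrl. Apod, the lipid carrier apolipoprotein D, fell from 151, 194 and 166 CPM to 52.7, 45.1 and 46.0 CPM (log2 fold change -1.83, SE 0.10, adjusted p = 9.77e-11), while cntrl held no more than 1.35 CPM. In all 3 genes shCdk8-2 lay between shCdk8-1 and cntrl. Osmr, the receptor chain for oncostatin M, was at 7.64, 7.73 and 6.72 CPM in shCdk8-1 and 1.68, 2.11 and 1.18 CPM in shCdk8-2 (log2 fold change -2.14, SE 0.15, adjusted p = 3.85e-09). Ctsh, a lysosomal cysteine protease, Trf, the iron carrier transferrin, the transcription factor gene Sox6, and Limch1, Hephl1, Fez1 and Ucn2 gave log2 fold changes between -2.47 and -1.78. For Fez1, Trf and Ucn2 the cntrl libraries overlapped those of shCdk8-2.

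Among genes read by natural killer cells, about as many passed the test as did not, nearly all of those that passed by less than 2-fold. H2-K1, a classical MHC class I heavy chain, fell from 58.3 to 61.9 CPM to 33.1 to 38.8 CPM (log2 fold change -0.72, SE 0.05, adjusted p = 1.28e-08). H2-D1, the other classical heavy chain, was at 252, 265 and 252 CPM in shCdk8-1 and 290, 306 and 300 CPM in shCdk8-2 (log2 fold change 0.22, SE 0.03, adjusted p = 3.56e-05). The 2 heavy chains thus stood in opposite order between the lines, and both were higher in cntrl, at 99.3 to 104 CPM and 585 to 591 CPM. H2-K1, H2-D1, Raet1d, the Ifitm genes and the Gimap genes belong to families of close copies, so reads of 50 bases may have been split among relatives. Of 19 genes of class I antigen presentation tested, 8 were higher and 2 lower, with a median of 0.16. Tapbpl, a peptide editor of class I molecules, was the other that fell, with a log2 fold change of -0.68 (adjusted p = 5.05e-05).

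Of 18 surface ligands of NK and T cells tested, 8 were higher and 1 lower. Icam1, the adhesion ligand of the leukocyte integrin LFA-1, rose from 3.33, 3.39 and 4.02 CPM to 5.91, 7.06 and 6.91 CPM (log2 fold change 0.88, SE 0.14, adjusted p = 7.92e-05), and both lines exceeded cntrl at 1.09 to 1.86 CPM. Raet1d, a stress ligand of the activating receptor NKG2D, was at 13.3, 14.4 and 15.6 CPM in shCdk8-1 and 18.4, 18.1 and 16.8 CPM in shCdk8-2 (log2 fold change 0.30, SE 0.07, adjusted p = 0.00564). Cd274, which encodes PD-L1, held 32 to 39 counts per library in shCdk8-1 and 50 to 56 in shCdk8-2 (log2 fold change 0.58, SE 0.17, adjusted p = 0.0211). It no longer passed the adjusted p when any 1 of 4 libraries was left out, replicates 1 and 2 of shCdk8-1 or replicates 2 and 3 of shCdk8-2, and the adjusted p ranged from 0.0302 to 0.0772 over the 6 omissions. In DMSO the Cd274 levels of the 2 lines overlapped (log2 fold change 0.09, adjusted p = 0.761). Of 50 interferon response genes tested, 2 were higher and none lower, below the 10.6% and 10.3% of all genes. Those 2 were Ifitm3, at 212, 252 and 228 CPM against 275, 268 and 273 CPM (log2 fold change 0.24), and Ifitm2, whose adjusted p of 0.022 rose to as much as 0.148 without replicate 1 of either line.

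Cytokine genes and NF-κB feedback targets were higher in shCdk8-2 where they passed the test. Of 13 chemokine and colony-stimulating factor genes tested, 6 were higher and none lower, with a median log2 fold change of 0.52. Ccl2, the monocyte chemoattractant followed in the study, was at 16, 19.2 and 17.8 CPM in shCdk8-1, 24.3, 26.4 and 25.3 CPM in shCdk8-2 and 63.8 to 74.1 CPM in cntrl (log2 fold change 0.52, SE 0.09, adjusted p = 0.000176). Ccl7, its neighbor in the same gene cluster, gave 0.60. Of 23 NF-κB genes tested, 5 were higher and none lower (all genes, 10.6% and 10.3%), with a median of 0.11. Nfkbia, the inhibitor IκBα that NF-κB induces, rose with a log2 fold change of 0.27 (SE 0.07, adjusted p = 0.00808). Snai2, which encodes the EMT factor SLUG, held 3, 1 and 1 counts in shCdk8-1 and 7, 9 and 1 in shCdk8-2, and its log2 fold change of 1.68 did not pass (SE 0.72, adjusted p = 0.108). Its libraries overlapped between the lines, and without replicate 3 of shCdk8-2 its adjusted p was 0.0261.

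Signaling lists were divided. Beside 10.6% of all genes higher and 10.3% lower, the Wnt list had 5 higher and 5 lower of 26 tested: Lgr6, a receptor for R-spondins, rose (log2 fold change 1.23, adjusted p = 0.00144), and Ctnnb1, which encodes β-catenin, fell (log2 fold change -0.65). In the Notch list Dll1, a ligand, rose from 0.538, 0.654 and 0.582 CPM to 2.12, 1.59 and 1.83 CPM (log2 fold change 1.65, SE 0.24, adjusted p = 3.66e-05), with cntrl at 16.5 to 18.8 CPM and 3 members higher and 2 lower of 16. The TGF-β and BMP list had 5 higher and 2 lower of 31, led by Id3, an inhibitor of helix-loop-helix factors (log2 fold change 0.74, adjusted p = 0.000809), and Ltbp1, which stores latent TGF-β in matrix (log2 fold change 0.55). Receptor tyrosine kinases were higher in 5 and lower in 1 of 22, among them Ptk7 (0.66) and Egfr (0.38), and Egfr was at 132 to 156 CPM in cntrl against 30.2 to 34.8 CPM in shCdk8-1 and 40.2 to 43.9 CPM in shCdk8-2.

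The list with the most members past the test in 1 direction was sterol synthesis and lipogenesis, the genes that SREBP transcription factors switch on when membrane cholesterol is low. All 36 members were tested, and 30 were lower in shCdk8-2 at the adjusted p and none higher, beside 10.3% of all genes lower. The median log2 fold change was -0.29 and no member passed the fold change of 2. The 19 enzymes of the cholesterol pathway itself were all negative and 17 passed. Acss2, which makes acetyl-CoA from acetate, was at 45.1, 42.9 and 44.5 CPM in shCdk8-1, 26.5, 23.3 and 25.5 CPM in shCdk8-2 and 13 to 15.4 CPM in cntrl (log2 fold change -0.81, SE 0.07, adjusted p = 3.45e-08). Fdps, which makes farnesyl pyrophosphate, fell from 26.6, 27.5 and 28.9 CPM to 15.9, 15 and 17.5 CPM (log2 fold change -0.78, SE 0.09, adjusted p = 1.51e-06). Lss, which closes the sterol ring system, fell from 176, 162 and 168 CPM to 110, 111 and 108 CPM (log2 fold change -0.62, SE 0.04, adjusted p = 4.57e-10). Each of these genes separated the 2 lines without overlap.

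Other steps of the pathway moved by less. Hmgcs1, which makes HMG-CoA, was at 255, 271 and 259 CPM in shCdk8-1, 218, 211 and 220 CPM in shCdk8-2 and 127 to 140 CPM in cntrl (log2 fold change -0.27, SE 0.04, adjusted p = 2.68e-05). Pmvk and Mvd of the mevalonate steps gave -0.60 and -0.59, and Sqle, the squalene epoxidase, -0.43. The mean log2 CPM of the 19 enzymes was 6.17 to 6.23 in the shCdk8-1 SnxB libraries, 5.81 to 5.84 in shCdk8-2 and 5.45 to 5.54 in cntrl, so shCdk8-2 stood between the other lines without overlap. In DMSO the same list had 29 members lower and 1 higher, with a median of -0.28, beside 9.91% of all genes lower and 11.2% higher. Acacb and Abca1, lipid genes outside the list named after their values were seen, were called with log2 fold changes of -1.34 and -1.40.

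**Figure D3:**
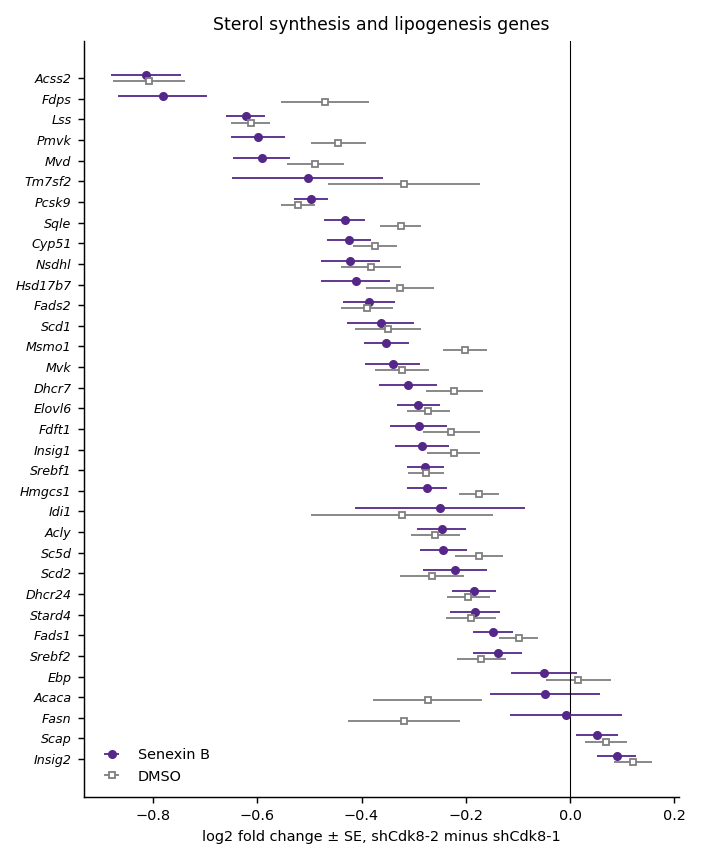
Log2 fold change ± SE, shCdk8-2 minus shCdk8-1 (x axis), of 34 of the 36 sterol synthesis and lipogenesis genes (y axis, ordered by the SnxB value), as filled circles in SnxB and open squares in DMSO. In SnxB 32 of the 34 genes shown lie below 0, and the DMSO values lie near the SnxB values for most genes.

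Promoters of this list were searched because its members moved together. RefSeq promoter windows of GRCm38.p6 (250 bases before to 50 after the start) were found for 25 of the 36 genes. The letters CCAAT on either strand were in 21 of these 25 genes (84%), in 43.2% of all tested genes with a window and in 45.0% of genes lower at the adjusted p. The E-box CACGTG was in 20% of the list's genes and 11.9% of tested genes, and TCACNCCAC, a form of the sterol element, in Hmgcs1 alone of the list. Examples are given with the motif, or its reverse complement ATTGG, in capitals.
Acss2 (chr2:155517960-155517984): cctacccactATTGGatgcctagag
Lss (chr10:76531533-76531557): tgatgctctgATTGGccgagctcgc
Pmvk (chr3:89454395-89454419): ctcaggttggCCAATtcacagcatc
Mvd (chr8:122443435-122443459): ggccagcgggCCAATcatatggcag
Hmgcs1 (chr13:119690204-119690232): cgtcaccgtcTCACCCCACttcccaggtc
The first 4 carry CCAAT or ATTGG between 22 and 131 bases before the start, and the window of Hmgcs1 shows its TCACNCCAC match. A match is a description of letters, and binding of a factor was not measured.

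The line difference under SnxB was set beside the same difference in the 6 DMSO libraries. Their values do not enter the SnxB fold changes, but all 18 libraries share the filter and the estimate of the spread, and the 6 SnxB libraries fitted alone gave 195 calls in place of 268. In DMSO 180 genes were called higher (1.41%) and 97 lower (0.759%), together 277 (2.17%), while 4185 had an unadjusted p under 0.05 (32.8%), and 185 genes were called under both agents, all in the same direction. These are 69.0% of the SnxB calls and 66.8% of the DMSO calls. Of the 268 genes called under SnxB, 262 had the same sign in DMSO, against 75.2% of all genes tested, and in 35 the DMSO libraries of the lines overlapped (of all genes, 20.2% were apart in DMSO with shCdk8-2 higher and 19.3% with it lower). No gene differed in its line difference between the agents by edgeR's interaction test at an adjusted p under 0.05. At an unadjusted p under 0.05 there were 431 such genes (3.37%), the lowest adjusted p was 0.9999, and DESeq2 called 0. Ppargc1a and Col9a1 gave log2 fold changes in DMSO of -2.23 and -1.46, close to their SnxB values of -2.25 and -1.44. Other genes were less alike in size. Psd4 gave 5.85 in DMSO and 5.10 in SnxB, and Pmaip1, without a count in shCdk8-1 under SnxB, 4.58 and 7.94.

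**Figure D4:**
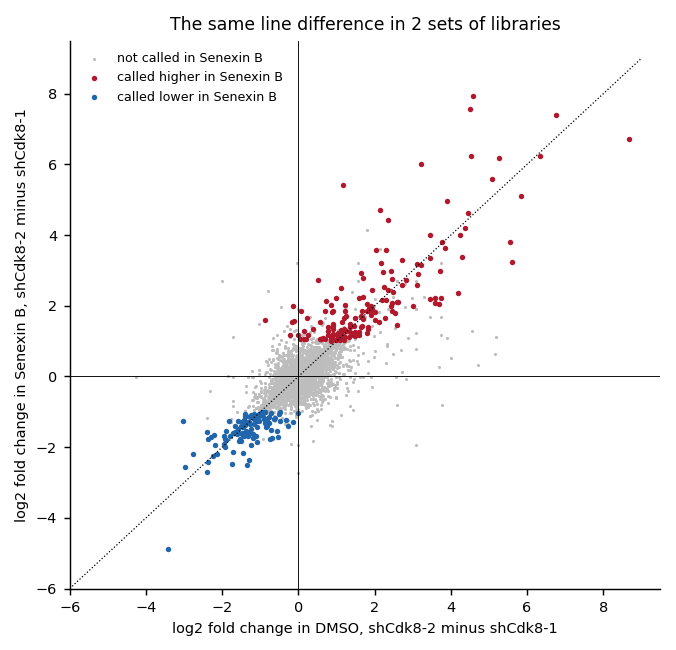
Log2 fold change of each gene tested, shCdk8-2 minus shCdk8-1, in DMSO (x axis) and in SnxB (y axis), with the line of equal values dotted. Genes called in SnxB are colored by direction, and 262 of the 268 lie in the quadrants of equal sign.

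The named genes among these 35 were scarce. Gimap5 had no count in shCdk8-1 and 1, 6 and 2 counts in shCdk8-2, Dcp1b at most 1 against 4 to 9, Ace at most 1 against 4 or 5, and Ibsp 7 or 8 against at most 2. Ucn2, a stress peptide of the CRF family, was the most abundant of the named genes of this kind, at 20 to 44 counts against 5 to 13. None of these genes passed the interaction test, so a difference between agents was not shown. Ibsp and Ucn2 kept their calls whichever library was left out (adjusted p 0.0098 to 0.0333 and 0.00349 to 0.0398). Ace lost its call whichever of the 6 libraries was left out (adjusted p 0.0516 to 0.129), Gimap5 without any shCdk8-1 library or replicate 2 of shCdk8-2 (0.0131 to 0.117), and Dcp1b without replicate 1 of shCdk8-2 (0.0601).

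The cntrl level was used to ask which of the lines lay farther from cells without a Cdk8 hairpin. Among the 162 genes higher in shCdk8-2, the cntrl mean under SnxB was on the shCdk8-2 side in 124 (76.5%), between the lines in 23 and on the shCdk8-1 side in 15. Among the 106 lower genes it was on the shCdk8-2 side in 71 (67.0%). Over both directions this was 195 of 268 (72.8%), against 52.1% of all genes tested, so that shCdk8-1 was the line farther from cntrl for most called genes. In genes chosen as high in cntrl and nearly absent in shCdk8-1, however, only part of the cntrl level was present in shCdk8-2. A set of 40 genes was picked from the DMSO libraries as at least 10 CPM in cntrl and under 5% of that in shCdk8-1. In the SnxB libraries, which that choice did not use, these 40 genes had a median of 1.92% of the cntrl level in shCdk8-1 (0 to 7.24%) and 8.49% in shCdk8-2 (1.42 to 25.7%). They lay on 17 chromosomes. The choice asked for low levels in shCdk8-1 and set no limit on shCdk8-2, so which line was lower is not a result. Under SnxB, libraries of shCdk8-2 correlated at 0.988 to 0.990 with shCdk8-1 and at 0.958 to 0.961 with cntrl. The choice may therefore also favor low levels in shCdk8-2, and its shares do not extend to other genes. Psd4, Grap and Samsn1 are examples of such levels.

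Small differences were not spread evenly over the genome, a pattern found after the values were seen. Among the 10503 genes whose mean reached 2 CPM, chromosome 19 had 202 of 380 genes higher in shCdk8-2 at the adjusted p (53.2%) and 10 lower, with a median log2 fold change of 0.18. Chromosome 10 had 200 of 521 lower (38.4%) and 12 higher, with a median of -0.14. In windows of 10 Mb the median was positive in all 7 of chromosome 19 (0.15 to 0.23) and negative in all 13 of chromosome 10. The first parts of chromosome 12 (below 80 Mb) and chromosome 16 (below 20 Mb) had medians of 0.18 and 0.17, whereas their remainders had -0.06 and -0.04. The 16 other chromosomes had whole-chromosome medians between -0.05 and 0.03, but single windows there stood out as well. On chromosome 9 from 30 to 40 Mb, 21 of 29 genes were higher with a median of 0.29, above any window of the 4 segments, and on chromosome X from 50 to 60 Mb, 8 of 20 were higher with a median of 0.19. From 120 to 130 Mb of chromosome 9, genes parted in both directions. There 13 of 30 were higher and 11 lower, with quartiles of -0.45 and 0.29. In DMSO, chromosomes 19 and 10 gave medians of 0.19 and -0.14.

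**Figure D5:**
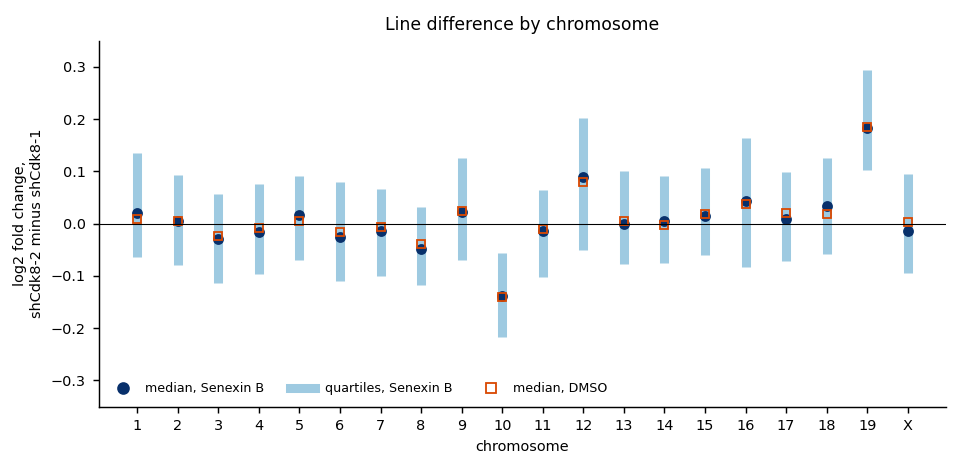
Log2 fold change, shCdk8-2 minus shCdk8-1 (y axis), of the genes whose mean reached 2 CPM, by chromosome (x axis). Circles are medians and bars the quartiles in SnxB, and open squares are medians in DMSO. Chromosome 19 stands highest and chromosome 10 lowest, with medians of 0.18 and -0.14 in SnxB.

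Several named genes lie in these 4 segments: Fas, Cd274 and Mxi1 on chromosome 19, Cdk19, Lss, Pfkl, Dcn and Raet1d on chromosome 10, Lamb1 and Nfkbia on chromosome 12, and Mcm4 and Snai2 on chromosome 16. In the segments 42.4% of genes passed the adjusted p against 18.2% elsewhere, while genes past the fold change of 2 were 1.68% there and 2.15% elsewhere. The segments were drawn from these same values, so the larger share past the adjusted p inside them follows from that choice. Outside the segments 24 of 30 sterol genes were lower. DNA copy number was not measured, and its part in these values was not tested.

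Markers of other cell types were checked in the 6 libraries. Of 18 immune cell markers, 14, among them Ptprc, Cd3e and Itgam, had at most 3 counts in every library, as had 4 of 9 endothelial and 5 of 6 adipocyte markers. The sixth adipocyte marker, the fatty acid carrier Fabp4, was at means of 23.8 CPM in shCdk8-1, 27.9 in shCdk8-2 and 787 in cntrl and was higher in shCdk8-2 at the adjusted p (log2 fold change 0.23, adjusted p = 0.018), though not without replicate 3 of shCdk8-1 or replicates 1 or 3 of shCdk8-2 (adjusted p up to 0.108). Of 11 mammary epithelial markers, 7 (Krt5, Krt14, Krt18, Krt19, Elf5, Csn2 and Wap) had at most 3 counts, so most defining markers of the tissue of origin were at or near 0. Fibroblast genes were abundant, with a summed level of 1860 to 1990 CPM in shCdk8-1, 2360 to 2470 in shCdk8-2 and 3110 to 3500 in cntrl, carried by Col3a1, Pdgfra and Pdgfrb, while Thy1 and Fap had at most 3 counts. Most of the difference between the sums was Col3a1, Pdgfrb was at means of 181 and 185 CPM, and of 6 fibroblast markers tested 2 were higher (Col3a1 and Pdgfra) and 2 lower (Dcn, and Col1a1 at means of 23.1 and 17.3 CPM). The part of these cell-type markers in the other results was not tested. Pecam1, an endothelial adhesion molecule, fell from 17.6, 15.8 and 16 CPM to 6.65, 7.12 and 6.62 CPM (log2 fold change -1.28, SE 0.08, adjusted p = 8.52e-10), and Cspg4 of the same list was lower (log2 fold change -0.51). Cdh5, another endothelial marker, was called in the other direction on 2 to 7 counts in shCdk8-1 and 7 to 14 in shCdk8-2 (log2 fold change 1.26, adjusted p = 0.0263), a call lost without replicates 1 or 3 of either line (adjusted p up to 0.17). Cldn5, Emcn, Erg and Kdr had at most 3 counts. Of the receptors behind the label triple negative, Pgr had no count, Esr1 was at means of 0.782 and 1.03 CPM and Erbb2 at 49.9 and 48.2 CPM in shCdk8-1 and shCdk8-2, and Esr1 was at 20.8 CPM in cntrl.

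The 6 libraries held between 16578764 and 20169557 counts, so that 3 counts corresponded to 0.149 to 0.181 CPM. No pair of libraries was identical.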

How the data were processed

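Total RNA of E0771 cells was sequenced as single-end reads of 50 bases. Per the file headers and the study's methods, the authors trimmed reads with Trimmomatic, aligned them with STAR to GRCm38 and counted them per GENCODE 13 (mouse) gene with featureCounts 1.5.1 in reversely stranded mode. The deposited count of each gene and library is a whole number without normalization, and these counts were used as deposited. Groups were taken from the sample titles. The 18 libraries held 16452260 to 22664693 counts. CPM are counts scaled to a common library size after TMM. Counting error is limited by this depth, and intervals for it were not needed beside replicate spread.

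All 18 libraries were fitted with edgeR 4.0.16 (glmQLFit and glmQLFTest, R 4.3.3, TMM, filterByExpr with a minimum of 10 counts and 15 in total, 1 mean per group, no block, 12 residual degrees of freedom), and p-values were adjusted by Benjamini-Hochberg across all 12772 genes. Log2 fold changes are shCdk8-2 minus shCdk8-1, with SE from the F statistic. A fold against 0 counts used a floor of 3 counts per library. Alternatives were DESeq2 1.42.0, other scalings, filters and fits, and leaving out each library. The procedure was tested on simulated counts. The genes named were the kinase module, genes the study names, the 12 largest called changes in each direction with at least 1 CPM and no overlap, up to 6 called members of each list in each direction or 2 past the adjusted p, and up to 4 called genes that overlap in DMSO. Other genes were named after their values were seen: Lss, Mvd, Sqle, Hmgcs1, Insig1, Pmvk, Cdkn1a, Bgn, Lamb1, Gimap6, Abca1, Acacb, Krt8, Mxi1, Col3a1 and those for which the text gives a log2 fold change alone. A few genes are not reported here. The lists, comparisons and members were chosen with earlier results of these data known. Gene types and sites were read with GENCODE 21 (mouse), promoters from RefSeq. Libraries with the same label number did not deviate together, so these replicate numbers were not used as pairs. The least different pair of libraries of a group was replicates 2 and 3 of shCdk8-2 under SnxB, which differed by 1.67 times counting noise. The file headers number both of these libraries 3, and whether they came from the same culture could not be settled. Replicates 2 and 3 of shCdk8-2 in DMSO are both numbered 3 as well, and that pair differed by 11.9 times counting noise. All libraries were counted separately.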

Additional observations from a re-analysis of the deposited data

How the results depend on the processing

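Under SnxB the count of 268 called genes changed to 75 (50 higher, 25 lower) when edgeR's glmTreat tested against a fold change of 2 itself, and to 2674 (1353 higher, 1321 lower) with no fold threshold, which are a stricter and a looser rule by construction. In DMSO the 277 calls changed likewise to 78 and 2693. Other settings gave 195 genes under SnxB (the 6 libraries fitted alone) to 304 (likelihood ratio test), and DESeq2 gave 234. Leaving out each library gave 242 to 263 genes under SnxB, 253 to 272 in DMSO, 0 for the difference between the agents, 26 to 30 sterol genes lower, 172 to 197 genes of chromosome 19 higher and 167 to 195 of chromosome 10 lower (205 and 206 among all genes tested). With no count filter the difference between the agents was called for 9 genes, all lower: Rn7sk, Mir6236, Lars2, Gm23935, Gm15564, Gm42418, n-R5-8s1, mt-Rnr1 and mt-Rnr2. All 9 had also passed the filter of the main fit, where edgeR's interaction test gave each an adjusted p of 0.9999. These transcripts are mostly ribosomal or small RNAs, and 1 DMSO library, shCdk8-2 replicate 3, held 105215 counts of Gm42418 against 20283 and 12401 in the others of its group. The 9 genes took 0.823% of counts there and 0.0831 to 0.206% in the other 11 libraries, and the cause was not tested.

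Alternatives added after seeing the data left 239 SnxB calls and 23 lower sterol genes without the 4 chromosome segments, and 70.8% to 72.8% of called genes with cntrl on the shCdk8-2 side. With a replicate block 267 genes were called under SnxB, 276 in DMSO and 0 for the difference between the agents. Libraries of the lines with the same label number had deviations correlated at -0.131 to -0.027 under SnxB, so the label numbers do not pair them. The block used the numbers of the labels, while the file headers number the shCdk8-2 libraries 2, 3 and 3. With the headers' number 2, the pair of SnxB libraries correlated at 0.136. Of the genes chosen for naming, Il33 alone no longer passed the adjusted p under the block (0.0552, beside a range of 0.0143 to 0.17 over the libraries left out). Over 99 genes chosen for naming and all alternatives no difference reversed its sign, and 133 single values lost their side of the threshold, 65 of them under glmTreat. Med12 passed the adjusted p with no count filter (0.0269), and Snai2 by the likelihood ratio test (0.0467). At this depth the difference of Snai2, on 1 to 9 counts per library, did not pass. Reck, on 1 to 10, did under each library left out, but not under glmTreat (adjusted p = 0.0839). In DMSO the line difference of Reck did not pass (adjusted p = 0.532 by the quasi-likelihood test), although its libraries did not overlap between the lines.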

Other observations

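Genes of glycolysis and the hypoxia response were mostly lower in shCdk8-2 where they passed the test. Of 36 tested, 15 were lower and 1 higher at the adjusted p (edgeR's quasi-likelihood test), beside 10.3% and 10.6% of all genes, with a median log2 fold change of -0.11. In DMSO 18 were lower and 3 higher, beside 9.91% and 11.2%. Pfkl, the liver-type phosphofructokinase that commits glucose to glycolysis, fell from 303, 333 and 307 CPM to 240, 224 and 223 CPM (log2 fold change -0.46, SE 0.04, adjusted p = 7.37e-08). It lies on chromosome 10, whose genes were lower as a whole. Vegfa, the angiogenic growth factor, fell from 99.2, 83.8 and 91.3 CPM to 66.0, 77.5 and 69.6 CPM (log2 fold change -0.37, SE 0.08, adjusted p = 0.00238), and its DMSO libraries overlapped. Mxi1, a MAX partner that opposes MYC, was the member that rose (log2 fold change 0.36, SE 0.04, adjusted p = 2.95e-06), and it lies on chromosome 19, whose genes were higher as a whole.

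Immediate early genes were divided, with 4 higher and 3 lower of 27 tested. Klf4, a zinc finger factor of growth arrest and stemness, fell from 23.3, 24.2 and 24.9 CPM to 14.8, 18.7 and 16.4 CPM (log2 fold change -0.54, SE 0.09, adjusted p = 0.00017). Dusp1, a MAP kinase phosphatase, was higher with a log2 fold change of 0.42.

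Genes of immune-cell signaling, which the tumor line also expresses, had 4 members higher and 5 lower of 24 tested. Syk, a kinase of immune receptors, was lower by the fit (log2 fold change -0.73), as was Plcg2, the phospholipase it activates (-0.62), whereas Inpp5d, the phosphatase SHIP1, was higher (0.72).

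Gimap6, a GTPase gene of the immune-associated family named after its values were seen, had 1 count in each shCdk8-1 library and 32, 25 and 26 in shCdk8-2, at least 9.11-fold higher. Its neighbor Gimap9 rose as well, with cntrl at 12.7 to 13.4 CPM and 15.9 to 17.7 CPM for Gimap9 and Gimap6.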
